A study of Homo sapiens with 6 samples.

Results

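The ABC drug efflux transporters are membrane pumps that use ATP to move drugs and their conjugates out of cells. The 8 genes described here were fixed by name as ABCB1, ABCC1, ABCC2, ABCC3, ABCC4, ABCC5, ABCC10 and ABCG2. They are 8 of the 48 genes of the human ABC superfamily that were counted, and 8 of the 61015 annotated genes with a transcript on file. All 8 passed the filter on low counts, among 20442 genes that did.

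Counts came from long non-coding RNA sequencing of MDA-MB-231, a triple-negative line from human breast cancer, in its paclitaxel (PTX)-resistant form. Cells were sorted with a fluorescent substrate of aldehyde dehydrogenase (ALDH) into BCSC, the ALDH+ breast cancer stem cells, and non-BCSC, the ALDH- cells, with 3 libraries each. The study describes both groups as PTX-resistant, but only the sample titles of BCSC state the resistance and the line. On the study's description, the comparison addresses the stem-like fraction within resistant cells and not resistance itself. The libraries come from 1 line, and the labels do not say whether they came from separate cultures, so p-values measure the spread between these samples, which may be technical.

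Paclitaxel binds microtubules and stops dividing cells. ABCB1, also called MDR1 or P-glycoprotein, is the classic pump for it, and ABCC10 and ABCC2 can also move taxanes. ABCC1 and ABCC3 export drugs and conjugates with glutathione or glucuronide, ABCC4 and ABCC5 export nucleotides and nucleotide analogues, and ABCG2 moves many drugs other than taxanes and is long known from stem-like side population cells.

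Library totals ran from 9898588 to 21215352 counts, and the 3 BCSC libraries were deeper than the 3 non-BCSC libraries. Levels are given as CPM, the count scaled to library size. Where a library had 0 counts, up to 3 counts (0.141 to 0.303 CPM, by library) could have been missed through counting error alone. The libraries had the markers of the line: all 10 genes of a list of MDA-MB-231 markers were tested, and their summed level was 7770 to 9000 CPM in BCSC against 4920 to 6480 CPM in non-BCSC. A list of 10 luminal markers summed to 109 to 136 CPM in BCSC against 196 to 226 CPM in non-BCSC. KRT8 (log2 fold change -3.15), KRT18 (-2.56) and PGR (-4.19) were called lower in BCSC, with KRT8 at 172, 99 and 80 counts against 833, 661 and 508, and KRT19 had 0 counts in 5 of 6 libraries. Markers of leukocytes, endothelium, fibroblasts and liver, 12 genes of which 11 were on file, summed to 29.0 to 47.8 and 101 to 123 CPM. Of 5 ALDH genes, ALDH1A1, ALDH1A2 and ALDH3A1 were called lower in the ALDH+ group, with log2 fold changes of -3.63, -2.70 and -1.49 and counts of at most 151 in any library, while ALDH1A3 had 519, 467 and 553 counts in BCSC against 285, 192 and 126 in non-BCSC (adjusted p = 0.0577). With the olfactory receptor level described next subtracted, none of these 3 was called (adjusted p = 0.0568, 0.0638 and 0.0791), and ALDH1A1 was not called with GC content and length corrected (adjusted p = 0.0570). PGR, ALDH1A1 and ALDH1A2 could not be tested where 10 counts were required in every library. The sort read enzyme activity, which was not measured in these counts. Genes that this tissue is not known to use also differed by group: 391 olfactory receptor genes, pooled, held 1.03, 1.10 and 3.19 counts per kb of transcript in BCSC against 8.33, 10.1 and 15.3 in non-BCSC. This level is set beside each sparse transporter as a ratio per kb, by the mean transcript length of the gene weighted by counts. Where the level was subtracted, the plain mean length over the gene's transcripts was used, so the amount removed differs from that in the ratios. The part of this level in the results was not tested.

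A gene was called where the adjusted p of edgeR's quasi-likelihood test was under 0.05 and the fold change was above 2. By that rule 1 of the 8 transporters was called, ABCB1, which was lower in BCSC. Over all genes tested 20.1% were called, 8.85% higher and 11.3% lower in BCSC. Higher genes were 44% of all calls, 28.5% with DESeq2, 25.1% after a correction for GC content and length, and 62.3% after the olfactory receptor level per kb was subtracted. With edgeR 0 transporters were called higher, 5 of the 8 had an unadjusted p under 0.05, 2 of them higher and 3 lower (43.1% of all genes passed that p in either direction), and DESeq2 called 1 higher (13.4% of all genes it tested were called). The BCSC and non-BCSC values did not overlap for 6 of the 8, against 52.1% of all genes tested. The median log2 fold change was -0.21 over the 8 transporters and -0.05 over all genes.

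**Figure D1:**
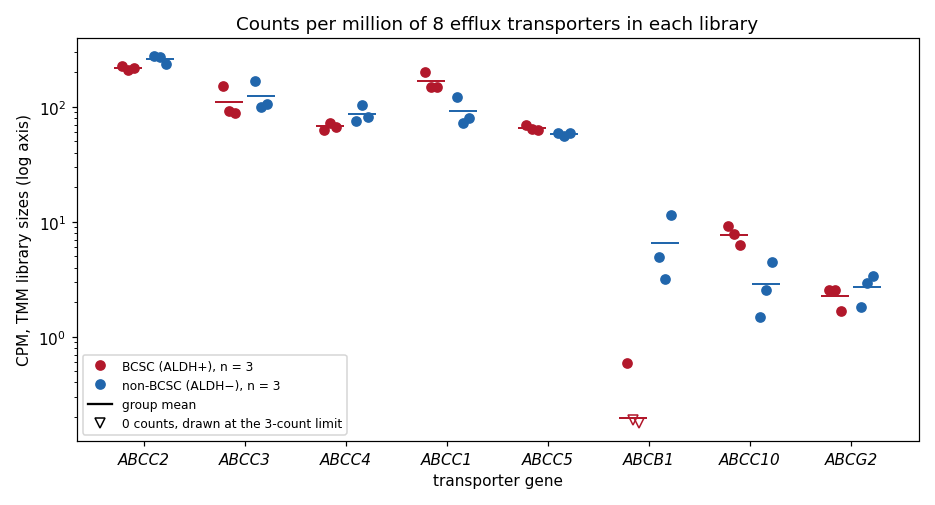
Levels in CPM of each transporter in each library (log axis), red for the 3 BCSC libraries and blue for the 3 non-BCSC libraries, with group means as lines and 0 counts drawn as open triangles at the 3-count limit. ABCC2 sits at 210 to 276 CPM in every library, while ABCB1 has 0 counts in 2 BCSC libraries and 3.18 to 11.5 CPM in non-BCSC.

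Levels can be compared between genes only per length, here as CPM per kb of transcript. In BCSC, ABCC2 was at the top of the order with 39.0 ± 1.68 CPM per kb (SD, n = 3), followed by ABCC1 at 26.1 ± 4.83 and ABCC3 at 21.8 ± 6.96. ABCC5 (12.3 ± 0.603) and ABCC4 (11.7 ± 0.752) came next, and ABCC10 (1.82 ± 0.345), ABCG2 (0.468 ± 0.102) and ABCB1 (0.0411 ± 0.0711) were far below. The ranges of the libraries overlapped between the neighbours ABCC1 and ABCC3 and between ABCC5 and ABCC4, so the order within those pairs is not settled. In non-BCSC, ABCC2 was again at the top with 46.3 ± 3.92 CPM per kb, followed by ABCC3 (24.5 ± 7.44), ABCC4 (15.1 ± 2.58), ABCC1 (14.4 ± 4.25) and ABCC5 (10.9 ± 0.352). ABCB1 (1.36 ± 0.914), ABCC10 (0.670 ± 0.360) and ABCG2 (0.557 ± 0.164) closed the order. There the ranges overlapped between ABCC4 and ABCC1, ABCB1 and ABCC10, and ABCC10 and ABCG2. The 5 abundant transporters thus held the upper 5 places in both groups.

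ABCB1 (ENSG00000085563, GRCh37 chr7:87132333-87342639, minus strand) had 12, 0 and 0 counts in BCSC replicates 1 to 3 and 60, 36 and 120 in non-BCSC. The groups did not overlap, and BCSC replicate 1 alone held all the counts of its group. The level was 0.197 ± 0.341 CPM in BCSC against 6.55 ± 4.39 CPM in non-BCSC (SD, n = 3), with a log2 fold change of -4.91 ± 1.28 (SE) and an adjusted p of 0.0191. It passed the filter on low counts through the non-BCSC libraries alone. Without BCSC replicate 2 the log2 fold change was -4.35 (adjusted p = 0.0516), and without non-BCSC replicate 3 it was -4.23 (adjusted p = 0.0823), so the call rests on each of these libraries. Without BCSC replicate 1, the fitted log2 fold change was -9.42 against libraries that were all at 0. In non-BCSC, ABCB1 held 1.5, 0.743 and 1.63 times the counts per kb of the pooled olfactory receptor genes, so the transcript stood near the level of genes that the tissue is not known to use. In BCSC the same ratio was 2.43 in replicate 1 and 0 in the other two libraries.

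The study's own qRT-PCR primers for MDR1 show which part of ABCB1 that assay reads, and they are printed here because they bear on a transcript that was nearly silent in these libraries. Both are given 5′ to 3′ in lower case, with no part marked.
MDR1 forward primer: caacttgcaaggggaccagag
MDR1 reverse primer: ttcctcgagaaactgcgaaaca
In 254396 annotated transcripts, exact matches were sought to the forward primer as printed and to the reverse complement of the reverse primer. The opposite orientations were not searched. Of the transcripts searched, 4 held either primer site, all of them ABCB1 transcripts, and 1 held both. That transcript was ABCB1-204, with the forward primer at positions 298 to 318, the reverse primer site at 361 to 382 and a product of 85 nt. ABCB1-204 had 8 counts in non-BCSC replicate 3 and 0 in the other libraries. The reverse site alone was in ABCB1-201, which had 4 and 6 counts in non-BCSC replicates 1 and 2, and in ABCB1-202 and ABCB1-210, which had 0 in every library. ABCB1-211, the MANE Select transcript, holds neither site and carried 89.8% of ABCB1 in non-BCSC, with 5, 0 and 0 counts in BCSC against 52, 30 and 112 in non-BCSC. In BCSC, 50% of the 12 counts lay on ABCB1-206, a retained-intron transcript. The transcript with most of the counts thus lies outside the annotated reach of the primer pair, and the counts of the transcript with both sites were too few to compare groups. The study also assayed MDR1 protein by Western blot, which does not depend on these primers. In cultured cells both assays compared knockdown of the long non-coding RNA LINC00115 with control within BCSC, and not BCSC with non-BCSC. The study reports that MDR1 mRNA and protein fell on that knockdown.

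**Figure D2:**
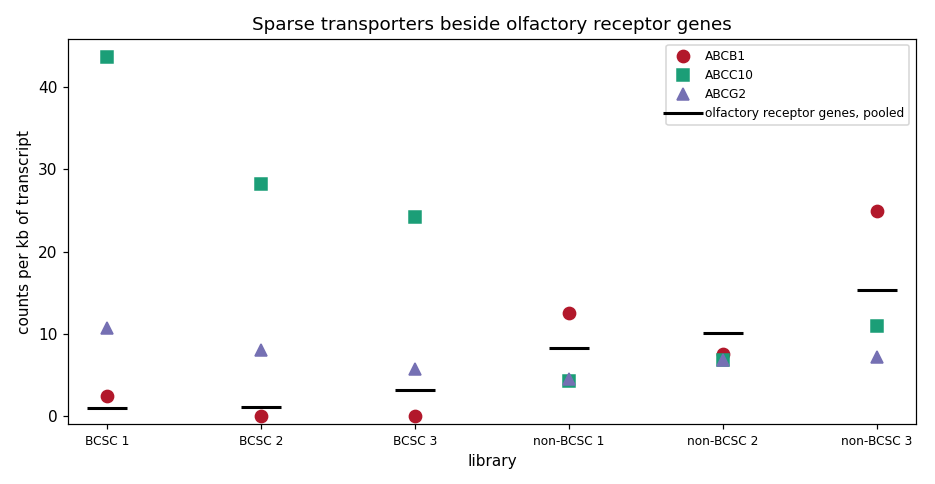
Counts per kb of transcript (linear axis) of ABCB1, ABCC10 and ABCG2 in each of the 6 libraries, with the pooled level of 391 olfactory receptor genes as a black bar. The bar runs from 1.03 to 3.19 in BCSC and from 8.33 to 15.3 in non-BCSC; ABCC10 and ABCG2 lie above it in the 3 BCSC libraries and below it in the 3 non-BCSC libraries.

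ABCB1 lies in a cluster of genes on chromosome 7, and 10 neighbours were listed, of which 9 were on file and tested. With edgeR, 0 were called higher (0 at an unadjusted p under 0.05 and 0 by DESeq2) and 3 were called lower. Over all genes tested, 11.3% were called lower. ABCB4, the phospholipid transporter next to ABCB1, fell from 7.24 ± 3.22 CPM in non-BCSC to 0.191 ± 0.196 in BCSC (log2 fold change -5.24, adjusted p = 0.00594). RUNDC3B and STEAP4, a metalloreductase, each had a log2 fold change of -4.54 (adjusted p = 0.00985 and 0.00747). All 3 were sparse, with under 100 counts per library on average, and held 1.11 to 2.25 times the olfactory receptor level per kb in non-BCSC. They passed the filter on low counts through the non-BCSC libraries alone, as ABCB1 did, and could not be tested where 10 counts were required in every library. Of the abundant neighbours, SRI had a log2 fold change of -0.59 that passed the adjusted p (0.0423) but not the fold, while DBF4, SLC25A40 and ADAM22 had -0.19, -0.40 and -0.22 and passed neither. ABCB1 and ABCB4 are paralogs. The MANE Select transcript of each transporter was searched for alignments of full identity, over 50 or more nucleotides, with transcripts of other genes. Only ABCC10 had such an alignment, with DLK2, which it overlaps on the opposite strand over 76 nt (0.940% of its exonic bases). The search could miss an identical run inside a longer, imperfect alignment. It therefore cannot say whether paralogs such as ABCB1 and ABCB4 share such a run.

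ABCC10 (MRP7; ENSG00000124574, GRCh37 chr6:43395104-43418165, plus strand) had 186, 120 and 103 counts in BCSC against 18, 29 and 47 in non-BCSC. The groups did not overlap, at 9.16, 7.83 and 6.23 CPM against 1.49, 2.56 and 4.51 CPM. The log2 fold change of 1.44 ± 0.52 (SE) had an adjusted p of 0.0610 and an unadjusted p of 0.0201, so ABCC10 was not called. Its call turned with the processing. DESeq2 gave 1.39 (adjusted p = 0.0478), subtraction of the olfactory receptor level per kb gave 2.75 (adjusted p = 0.0472), and leaving out non-BCSC replicate 3 gave 1.95 (adjusted p = 0.0362), while a correction for GC content and length gave 0.38 (adjusted p = 0.613). ABCC10 has 58.2% GC, more than 89.1% of the genes tested. Per kb it held 42.4, 25.6 and 7.59 times the olfactory receptor level in BCSC against 0.508, 0.675 and 0.722 times in non-BCSC. The subtraction used the plain mean length of the transcripts of ABCC10, which is shorter than the 4.25 kb behind these ratios. It therefore removed less than the level that these ratios use.

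The counts of ABCC10 were spread over several transcripts. ABCC10-207, which retains an intron, had 92, 53 and 15 counts in BCSC against 7, 17 and 20 in non-BCSC. ABCC10-204, the MANE Select transcript, had 17, 28 and 48 counts in BCSC against 0 in each non-BCSC library (adjusted p = 0.0810 over all transcripts). ABCC10-201 had 74, 28 and 13 counts in BCSC against 9, 12 and 0 in non-BCSC. It also holds 391 nt that ABCC10-204 lacks, and ABCC10-204 holds stretches of 217 and 172 nt that ABCC10-201 lacks. ABCC10-201 further carries a segment of 45 nt (GRCh37 chr6:43403831-43403875, plus strand) that ABCC10-204 lacks. This segment is shown in capitals between 15 flanking bases on each side because it is among those that separate these 2 coding transcripts.
ABCC10-201: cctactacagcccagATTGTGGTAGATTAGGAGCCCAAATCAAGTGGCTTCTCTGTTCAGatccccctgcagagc

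ABCC1 (MRP1; ENSG00000103222, GRCh37 chr16:16042995-16237114, plus strand) was the other transporter past the adjusted p, as 2 of the 8 were, against 29.9% of all genes tested. It had 202, 149 and 148 CPM in BCSC against 123, 72.3 and 80.7 CPM in non-BCSC, and the groups did not overlap. The means were 166 ± 30.8 and 91.9 ± 27.1 CPM (SD, n = 3). The log2 fold change was 0.86 ± 0.21 (SE, adjusted p = 0.0146), short of the fold required for a call. Replicate 1 was the highest library in both groups. Without non-BCSC replicate 1 the log2 fold change was 1.18 (adjusted p = 0.00540) and ABCC1 was called. Without BCSC replicate 1, non-BCSC replicate 2 or non-BCSC replicate 3 the adjusted p was 0.0568, 0.0531 and 0.0571. With the correction for GC content and length it was 0.12 on the log2 scale (adjusted p = 0.543), and ABCC1 has 54.9% GC, more than 82.0% of the genes tested.

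The ABCC1 counts lay on different transcripts in different libraries. How reads were assigned between transcripts that share most of their sequence is not given. The part of read assignment in such shifts was not tested, here or for the other transporters. ABCC1-202, the MANE Select transcript, had 2662, 0 and 2219 counts in BCSC against 0 in all 3 non-BCSC libraries. ABCC1-201 had 0, 1423 and 0 counts in BCSC against 1466, 779 and 832 in non-BCSC, where it held 97.7% of the gene. BCSC replicate 2 thus resembled the non-BCSC libraries in this respect and not the other BCSC libraries. ABCC1-203 held 1274 counts in BCSC replicate 1 alone and ABCC1-209 held 795 in BCSC replicate 2 alone. ABCC1-201 differs from ABCC1-202 within the coding span by a segment of 30 nt, or 10 codons (GRCh37 chr16:16192730-16192759, plus strand). It is printed in capitals between 15 flanking bases on each side because it is the one difference between them inside the coding span.
ABCC1-201: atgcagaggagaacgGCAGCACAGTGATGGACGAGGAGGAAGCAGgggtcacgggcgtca

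**Figure D3:**
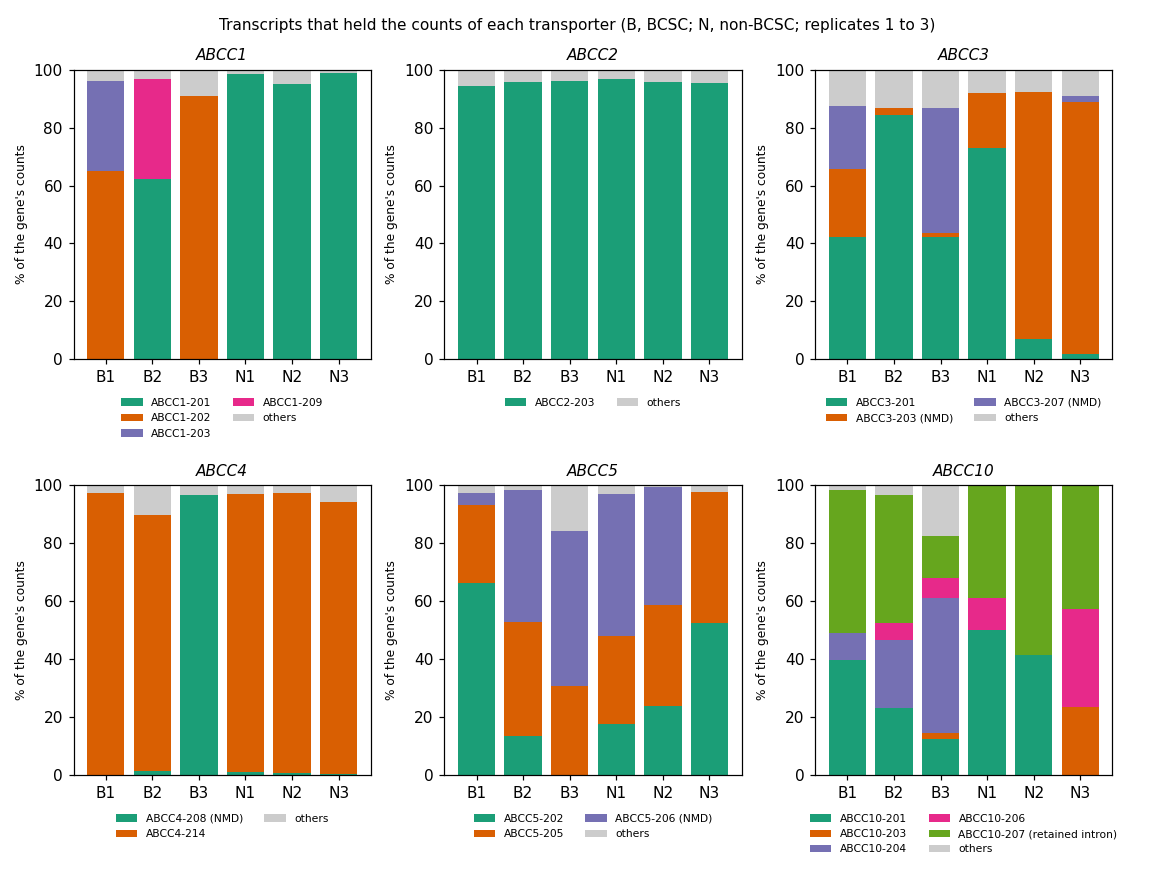
Percent of each gene's counts (linear axis) on its annotated transcripts in each library, for the 6 transporters with at least 50 counts on average; colours are transcripts with over 20% in any library and grey is the rest. ABCC2 rests on ABCC2-203 in all 6 libraries, whereas the transcripts of ABCC1, ABCC3, ABCC4, ABCC5 and ABCC10 change between libraries of the same group.

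ABCC2 (MRP2; ENSG00000023839, GRCh37 chr10:101542397-101612351, plus strand), an exporter of glucuronide and glutathione conjugates best known from the bile canaliculus, had 229, 210 and 218 CPM in BCSC against 276, 269 and 235 CPM in non-BCSC. The groups did not overlap, with every BCSC library below every non-BCSC library. The log2 fold change was -0.25 ± 0.10 (SE, adjusted p = 0.0910). ABCC2-203, the MANE Select transcript, held 95.3% of its counts in BCSC against 96.1% in non-BCSC. Of the 6 transporters in the plot of transcript shares, ABCC2 was the one whose leading transcript was the same in every library, with over 20% of the counts on it alone.

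ABCC3 (MRP3; ENSG00000108846, GRCh37 chr17:48712138-48769614, plus strand) had 151, 92.0 and 88.4 CPM in BCSC against 168, 99.7 and 105 CPM in non-BCSC. The groups overlapped, and replicate 1 was the highest library in both. The log2 fold change was -0.17 ± 0.25 (SE, adjusted p = 0.636). With the correction for GC content and length it was -1.02 (adjusted p = 0.00124) and ABCC3 was called lower, and without non-BCSC replicate 1 it was 0.16 (adjusted p = 0.627). The gene has 56.1% GC.

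ABCC3 divided between a coding transcript and transcripts annotated as targets of nonsense-mediated decay (NMD), in which an early stop marks the RNA for destruction. ABCC3-201, the MANE Select transcript, had 1294, 1188 and 618 counts in BCSC against 1480, 78 and 19 in non-BCSC. ABCC3-203, an NMD transcript, had 725, 35 and 19 counts in BCSC against 387, 964 and 955 in non-BCSC. ABCC3-207, also NMD, had 662, 0 and 630 in BCSC against 0, 0 and 25 in non-BCSC. Most counts of non-BCSC replicate 1 thus lay on the coding transcript, and most of those of the other non-BCSC libraries on ABCC3-203. The part of read assignment in this was not tested. ABCC3-203 carries a segment of 55 nt (GRCh37 chr17:48736543-48736597, plus strand), not a multiple of 3, that ABCC3-201 lacks. It is shown in capitals between 15 flanking bases because it sets ABCC3-203 apart from ABCC3-201. ABCC3-207 lacks it, and what both NMD transcripts hold beyond ABCC3-201 is a stretch of 149 nt at GRCh37 chr17:48755305-48755453.
ABCC3-203: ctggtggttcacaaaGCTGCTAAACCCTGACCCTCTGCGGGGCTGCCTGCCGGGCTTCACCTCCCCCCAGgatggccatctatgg

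ABCC4 (MRP4; ENSG00000125257, GRCh37 chr13:95672089-95953729, minus strand), which exports cyclic nucleotides and prostaglandins, had 63.4, 72.0 and 67.1 CPM in BCSC against 75.1, 103 and 81.6 CPM in non-BCSC. Every BCSC library was below every non-BCSC library. The log2 fold change was -0.36 ± 0.15 (SE, adjusted p = 0.0944). ABCC4-214, the MANE Select transcript, had 1250, 975 and 0 counts in BCSC against 873, 1133 and 801 in non-BCSC. In BCSC replicate 3 the counts lay instead on ABCC4-208, an NMD transcript, with 1073, against 2 to 17 in the other 5 libraries. That transcript holds a stretch of 286 nt that ABCC4-214 lacks. It also holds a segment of 28 nt (GRCh37 chr13:95814019-95814046, minus strand), not a multiple of 3, that ABCC4-214 lacks. This segment is printed in capitals between 15 flanking bases because it is among those that distinguish the form that 1 library alone was assigned to.
ABCC4-208: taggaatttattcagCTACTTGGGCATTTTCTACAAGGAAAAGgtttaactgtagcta

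ABCC5 (MRP5; ENSG00000114770, GRCh37 chr3:183637722-183735727, minus strand), an exporter of cyclic nucleotides and their analogues, had 69.1, 64.5 and 62.9 CPM in BCSC against 59.0, 55.7 and 58.8 CPM in non-BCSC. The groups did not overlap, but the log2 fold change was 0.18 ± 0.13 (SE, adjusted p = 0.315). The direction turned to -0.11 with the correction for GC content and length and to -0.00851 with the olfactory receptor level subtracted. ABCC5-205 had 378, 388 and 321 counts in BCSC against 218, 219 and 277 in non-BCSC. ABCC5-202, the MANE Select transcript, ran from 0 to 930 and the NMD transcript ABCC5-206 from 0 to 556 counts over the 6 libraries.

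ABCG2 (BCRP; ENSG00000118777, GRCh37 chr4:89011302-89152780, minus strand) had 52, 39 and 28 counts in BCSC against 22, 33 and 35 in non-BCSC. The groups overlapped, at 2.27 ± 0.496 and 2.70 ± 0.794 CPM (SD, n = 3). The log2 fold change was -0.25 ± 0.67 (SE, adjusted p = 0.801). All counts lay on ABCG2-205, and the other 4 transcripts on file, including the MANE Select ABCG2-201, had 0 counts in every library. Per kb, ABCG2 held 10.4, 7.32 and 1.81 times the olfactory receptor level in BCSC against 0.545, 0.675 and 0.472 times in non-BCSC. With that level subtracted per library, at the shorter plain mean transcript length, the log2 fold change turned to 4.12 (adjusted p = 0.0681). The 5 abundant transporters held at least 7.53 times this level in every library.

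**Figure D4:**
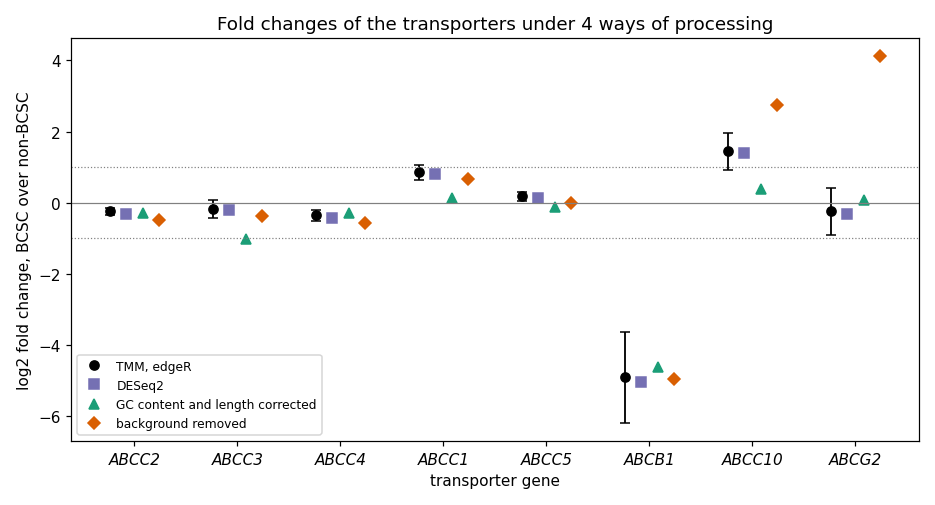
Log2 fold change of each transporter, BCSC over non-BCSC (linear axis), under the edgeR test with TMM scaling (black, bars are 1 SE), DESeq2, a correction for GC content and length, and subtraction of the olfactory receptor level; dotted lines mark a fold of 2. ABCB1 is lower under all 4, while ABCC10 ranges from 0.38 to 2.75 and ABCG2 from -0.31 to 4.12. For these 3 genes the subtraction used a plain mean transcript length, shorter than the length behind their ratios to that level, and so removed less. By the longer length, 4.8 kb, ABCB1 in non-BCSC replicate 2 held 0.743 times the level.

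Over the transporters, 94 transcripts were on file, 74 had a count and 27 passed the filter on low counts. With edgeR, 0 of the 27 were called, against 0.784% of all transcripts tested. At an unadjusted p under 0.05 there were 3, against 17.4% of all transcripts, and they were ABCB1-211, ABCC1-205 and ABCC10-204. DESeq2 called 5 (3.76% of all transcripts it tested): ABCB1-211 lower and ABCC1-202, ABCC1-205, ABCC1-210 and ABCC10-204 higher. These transcripts were named after their values were seen. The spread between libraries was larger for transcripts than for gene sums, with a biological coefficient of variation, in common over features, of 1.02 against 0.453.

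The share of counts on protein-coding transcripts was compared for the 6 transporters with at least 50 counts on average. For ABCC3 it was 60.8% ± 25.8 in BCSC against 28.6% ± 40.3 in non-BCSC, and for ABCC4 62.7% ± 54.4 and 97.0% ± 0.956 (SD, n = 3). For ABCC10 it was 52.7% ± 7.39 and 38.3% ± 13.6. ABCC1, ABCC2 and ABCC5 had differences of -3.00, -0.608 and -5.24 percentage points. Exact two-sided permutation p-values ran from 0.2 to 0.6 over the 6 comparisons, with Benjamini-Hochberg adjusted values of 0.45 to 0.6, and 3 libraries against 3 allow no p below 0.1. Without BCSC replicate 3, the difference for ABCC4 was -2.95 percentage points.

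The other 40 genes of the ABC superfamily were set beside the 8. Of these 36 were tested, 4 were called higher and 10 lower. The genes higher in BCSC were TAP2 (log2 fold change 2.47, adjusted p = 0.000592) and TAP1 (1.96, adjusted p = 0.0154), which load peptides for antigen presentation, ABCA3 (1.39, adjusted p = 0.0111), a lipid transporter, and ABCB8 (1.68, adjusted p = 0.0275), of mitochondria. With GC content and length corrected, TAP2 alone of these remained called, with TAP1 at 1.09, ABCA3 at 0.28 and ABCB8 at 0.51 on the log2 scale. Among the lower genes were ABCC9 (-3.48), a subunit of potassium channels, ABCA6 (-2.82), ABCB4 (-5.24), ABCB11 (-2.65), the bile salt pump, and CFTR (-2.93), a chloride channel, with adjusted p-values of 0.00520 to 0.0127. In non-BCSC, ABCB11 held 0.884, 1.39 and 0.963 times the olfactory receptor level per kb. The ratio was 1.51 to 2.25 for ABCA6, 2.05 to 2.25 for ABCB4, 2.07 to 5.26 for CFTR and 2.98 to 4.82 for ABCC9. Of the 10 lower genes, 8 had a mean under 100 counts per library, as ABCB1 did. With the olfactory receptor level subtracted, ABCA9 and ABCB5 were not called lower, ABCC8 and ABCD2 could not be tested, and ABCB8 was not called higher (adjusted p = 0.0502). ABCA9, ABCB4, ABCB5 and ABCC8 could not be tested where 10 counts were required in every library. Their BCSC libraries would not have passed the filter on low counts by themselves, so these genes were tested through the non-BCSC libraries, as ABCB1 was. Of the 12 genes of subfamily C, to which 6 of the transporters belong, 11 were tested and 3 (ABCC8, ABCC9 and CFTR) were called lower. Over all 44 ABC genes tested, 4 were called higher and 11 lower, against 8.85% and 11.3% of all genes tested. Some of the lower genes passed the filter only through the group in which they were higher, as stated above.

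**Figure D5:**
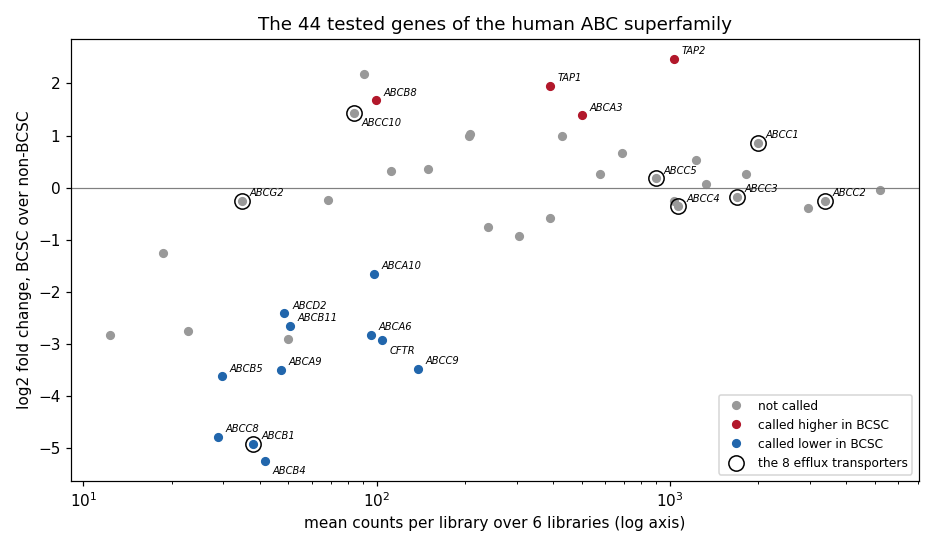
Log2 fold change, BCSC over non-BCSC (linear axis), against mean counts per library (log axis) for the 44 tested ABC genes, with the 8 efflux transporters ringed. The 11 genes called lower, ABCB1 among them, have at most 138 counts per library on average, and the 5 abundant efflux transporters lie between -0.36 and 0.86.

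Regulators of transporter genes were a list of 17, of which 15 were tested, with 1 called higher and 3 lower. YBX1, a factor known to bind the ABCB1 promoter, fell to 389 ± 27.2 CPM from 1000 ± 161 (log2 fold change -1.36, adjusted p = 0.000248). AHR, the receptor for aryl hydrocarbons, fell by 2.56 on the log2 scale (adjusted p = 0.0205), from 7.83 to 1.33 CPM. NR1I2, the xenobiotic receptor PXR that induces ABCB1, had 0 counts in every BCSC library and 2.46 ± 1.71 CPM in non-BCSC, at least 14.5-fold lower with the floor of 3 counts per library. AHR and NR1I2 had 0.278 to 1.22 times the olfactory receptor level per kb in non-BCSC, and neither was called once that level was subtracted, NR1I2 being untestable there. NR1I2 passed the filter on low counts through the non-BCSC libraries alone. Neither gene could be tested where 10 counts were required in every library.

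Conjugating enzymes make the glutathione and glucuronide conjugates that ABCC pumps carry. Of 20 listed, 16 were tested, 1 was called higher and 2 lower. GSTP1, a glutathione transferase, rose (log2 fold change 1.37, adjusted p = 0.00391), but with GC content and length corrected it was at 0.66 and not called. GCLC, the catalytic subunit for glutathione synthesis, fell from 525 ± 57.7 CPM in non-BCSC to 161 ± 14.2 in BCSC (-1.70, adjusted p = 6.1e-05). UGT1A6, a glucuronosyltransferase that shares exons with the other UGT1A genes, fell by 4.18 on the log2 scale (adjusted p = 0.000381).

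Genes of paclitaxel uptake and metabolism were 9, of which 6 were tested. With edgeR 0 were called higher (0 at an unadjusted p under 0.05 and 0 by DESeq2) and 3 lower. These were the uptake carriers SLCO1A2 (-3.71, adjusted p = 0.00910) and SLCO1B3 (-2.06, adjusted p = 0.0325) and the oxidase CYP3A5 (-4.25, adjusted p = 0.0187), all with means under 100 counts and 1.03 to 2.88 times the olfactory receptor level per kb in non-BCSC. Among 8 other resistance proteins, MVP, the major vault protein, rose (1.92, adjusted p = 0.00682), as did LRRC8A (1.69, adjusted p = 0.00262), a subunit of the volume-regulated anion channel. SLC47A2, an exporter of organic cations, fell (-3.36, adjusted p = 0.00876). With GC content and length corrected, MVP (0.64), LRRC8A (0.72) and SLCO1B3 (-1.30, adjusted p = 0.0986) were not called, and with the olfactory receptor level subtracted SLC47A2 and SLCO1B3 were not. SLCO1A2, CYP3A5 and SLC47A2 could not be tested where 10 counts were required in every library. The shares of genes called over the whole table, given above, are the measure for each of these counts.

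Each transporter was set beside the genes whose mean-centred log2(CPM + 0.5) over the 6 libraries differed least from its own, by root mean square, among 12576 genes with at least 50 counts on average. For ABCC1 these were FAM234A (0.0269), TRIM28 (0.0319) and AMBRA1 (0.0430), and for ABCC2 SLC1A3 (0.0370), SBNO1 (0.0376) and COMMD8 (0.0388). EPHX1 (0.0814) and PIH1D1 (0.0978) were nearest to ABCC3, and TCAF1 (0.0476), BLOC1S2 (0.0549) and GABARAPL2 (0.0625) to ABCC4. For ABCC5 they were SLC25A3 (0.0294), TSC1 (0.0404) and MRPS27 (0.0416). The sparse transporters had looser neighbours. For ABCB1 they were CHI3L1 (0.325), KCNT2 (0.479) and SULT1B1 (0.5), for ABCC10 ENSG00000269825 (0.116), IER2 (0.141) and MGRN1 (0.146), and for ABCG2 C2orf49-DT (0.0771), ENSG00000275764 (0.0959) and GTF2B (0.0976). Over 6 libraries these distances are descriptions only.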

How the data were processed

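The authors deposited 1 table of whole-number counts per transcript, neither normalized nor filtered, for all 6 libraries. The submitters' processing notes name HISAT2, featureCounts, DESeq2 and hg38 without roles, while the study's methods name HISAT2 and hg19. How reads were assigned to transcripts, whether strand was used and the annotation release are not given in the sources used here. Of 252618 transcripts, 249787 (98.9%) matched GENCODE on GRCh37 by identifier, and 2827 others and 4 assembler-named ones were left out. The table has no coordinates, so all coordinates come from that annotation.

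Groups came from the sample titles. Transcript counts were summed per gene. The test was that of edgeR 4.0.16 under R 4.3.3 after TMM scaling and its expression filter, by a robust quasi-likelihood fit with group alone, and Benjamini-Hochberg adjustment over all genes (or all transcripts). The scripts were tested on simulated data. CPM used TMM library sizes. Alternatives were RLE factors, DESeq2 1.42.0, other filters, a replicate block, each library left out, a GC content and length correction (loess, span 0.3), thinning, and subtraction of the olfactory receptor level per kb. The subtraction multiplied that level by the plain mean length of a gene's transcripts. Ratios to that level, and CPM per kb, used the mean length weighted by counts.

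Named genes were, from each list, up to 5 called genes per direction with the smallest p whose groups did not overlap, otherwise the 2 with the smallest unadjusted p, the 3 nearest patterns per transporter, and transcripts with at least 20% of a transporter's counts in either group. Other genes and transcripts named in the text were chosen after their values were seen. A few genes that the rule names are not reported here. The 8 transporters and the gene lists were chosen with earlier results of these data known.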

Additional observations from a re-analysis of the deposited data

How the results depend on the processing

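The count of transporters called, 1 with edgeR, was 2 with DESeq2 (ABCB1 and ABCC10), with GC content and length corrected (ABCB1 and ABCC3), with the olfactory receptor level subtracted (ABCB1 and ABCC10), with no minimum fold (ABCB1 and ABCC1) and by unadjusted p with the fold (ABCB1 and ABCC10). It was 0 with at least 10 counts required in every library, since ABCB1 could not be tested there, and 0 to 2 with 1 library left out. Among the listed genes of the other pathways, 32 were called, 11 of them higher, against 54 without the minimum fold and 27, 3 of them higher, with GC content and length corrected. Over all genes, 4117 were called, against 6673 with DESeq2, 2560 where every library had 10 counts or more, and 2157 to 4821 with 1 library left out. Over all transcripts, 362 were called, against 5619 with DESeq2, 723 where every library had 10 counts or more, 0 with the replicate block and 0 to 27 with 1 library left out. Transporter transcripts called went from 0 to 5 with DESeq2 and to 3 by unadjusted p with the fold.

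Log2 fold changes with 1 library left out ran from -9.42 to -4.23 for ABCB1, 0.69 to 1.18 for ABCC1, -0.46 to 0.16 for ABCC3, and 1.18 to 1.95 for ABCC10. ABCC1 passed at 0.86 without the minimum fold, and ABCC3 was called at -1.02 with GC content and length corrected. ABCC10 was called at 1.39 with DESeq2, at 2.75 with the background subtracted and at 1.44 by unadjusted p. ABCC5 turned to -0.11 with GC content and length corrected and -0.00851 with the background subtracted, and ABCG2 to 0.07 and 4.12. The causes were not tested. Requiring 10 counts in every library moved the median of all genes by -0.15. ABCB1, ABCC1, ABCC2, ABCC4 and ABCC10 kept their direction under all alternatives in which they were tested. Differences in protein-coding share with 1 library left out ran from -0.967 to 0.0333 percentage points for ABCC2 and from -20.1 to 10.1 for ABCC5.

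Same-numbered replicates had correlations of deviations of 0.234, 0.0695 and 0.247 over 12576 genes, so the numbers were not taken to pair the samples, although every library correlated best with its own number. With the replicate block, 1 transporter was called, ABCB1, with a log2 fold change of -5.65 (adjusted p = 0.00978). Among the transporters, depth was lowest for ABCB1 and ABCG2, with 38.0 and 34.8 counts per library on average.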

Other observations

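Proteins that hold transporters at the membrane or move them there were a list of 9 genes, all tested, with 3 called higher in BCSC. With edgeR 0 were called lower, against 2 at an unadjusted p under 0.05 and 0 by DESeq2, and 8.85% of all genes were called higher. CAV1, the main protein of caveolae, had 570 ± 15.2 CPM in BCSC and 231 ± 21.4 in non-BCSC (SD, n = 3; log2 fold change 1.3, adjusted p = 8.7e-05). NHERF2, a PDZ scaffold of apical transporters, had 31.2 ± 17.4 and 10.9 ± 4.42 CPM (1.51, adjusted p = 0.0248). PIM1, a kinase known to phosphorylate ABCG2, had 14.0 ± 2.77 and 5.62 ± 2.10 CPM (1.32, adjusted p = 0.0252). With GC content and length corrected, NHERF2 (0.18) and PIM1 (0.50) were not called. CAV1 is also on the list of MDA-MB-231 markers, whose summed level was higher in all 3 BCSC libraries. The scaffolds NHERF1 and PDZK1 and the ezrin gene EZR had log2 fold changes of 0.53, -0.96 and -0.15 and did not pass the test.

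HIF1A, a hypoxia factor that can induce ABCB1, was on the list of regulators and had 2330 ± 124 CPM in BCSC against 3150 ± 298 CPM in non-BCSC (SD, n = 3; log2 fold change -0.44, adjusted p = 0.0106). It passed the adjusted p and fell short of the fold required for a call. EPAS1, another hypoxia factor on that list, went the other way, with 236 ± 18.9 CPM in BCSC against 148 ± 17.7 in non-BCSC. Its log2 fold change was 0.68 (adjusted p = 0.00401), also short of the fold. The study's account of HIF1α concerns the stability of the protein, which these counts do not measure. A link of either gene to ABCB1 was not tested.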
